A study of Homo sapiens with 4 samples.

Results

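Heat shock proteins are molecular chaperones that bind unfolded or newly made proteins, keep them from aggregating and hand them on for folding. The HSP70 proteins work in cycles of ATP hydrolysis that J-domain proteins (HSP40) start and nucleotide exchange factors end, and HSP90 proteins receive many of their clients from HSP70. Under proteotoxic stress the transcription factor HSF1 binds heat shock elements and raises the inducible members, while constitutive members are transcribed at high levels in unstressed cells, and unfolded proteins in the endoplasmic reticulum (ER) raise the ER chaperones through a separate pathway. Many genes that respond directly to IFNγ carry GAS elements.

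The 10 genes described here are chaperones of the cytosol, the mitochondria and the ER, chosen by symbol: HSPA1A, HSPA1B, HSPA8, HSPA5, HSPH1, DNAJB1, HSP90AA1, HSP90AB1, HSPB1 and HSPD1. Each had 1 row among the 37515 Ensembl genes of the count table, and all 10 were among the 14820 genes with enough counts to be tested. They were measured by RNA-seq in Caco-2, a human colon cancer line whose cells differentiate in culture and serve as an intestinal epithelium model. Cells labelled WT had grown on transwells for 15 days when IFNγ (60 ng/ml) was added to the basal side. The 2 stimulated libraries were taken at 3 h, and the 2 unstimulated libraries, whose cells received media, at 0 h. The comparison therefore holds both the IFNγ and the elapsed time with any handling, and these cannot be told apart. Nothing in the labels says that the replicates came from separate cultures, so p-values measure the spread between these libraries, which may be technical.

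The libraries held 7171455 to 10365346 counts, and levels are given as CPM, counts divided by the scaled library size. All 9 epithelial and enterocyte markers checked had at least 102 counts in every library. Of 7 markers of other cell types with a row (8 were listed), PTPRC, CD3E and COL1A2 had at most 10 counts in any library, whereas COL1A1 had 638 to 1842, and the summed counts of the 7 ran from 707 to 1934 in unstimulated and from 1006 to 1850 in IFNγ libraries. All 9 tested genes of a list of IFNγ-induced control genes rose by 3 h in edgeR's quasi-likelihood test, which was passed at a Benjamini-Hochberg adjusted p under 0.05. Of all tested genes 2963 (20.0%) passed, 1337 (9.02%) as higher and 1626 (11.0%) as lower. After a correction of each library for its trend with GC and length, 1274 were higher and 954 lower.

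The sequences upstream of the 10 genes were searched for the elements named above. Those shown are of the genes that fell (HSPH1 and HSPA1B), of HSPA1A, which is nearly identical to HSPA1B, and of HSP90 and ER members with a different element content. RefSeq (GRCh38.p14) gives a start for all 10 genes, with 16 start sites in total, and the 250 bases before each were searched on both strands. The upstream sequences of HSPA1A (chr6:31815293-31815542, plus strand) and HSPA1B (chr6:31827488-31827737, plus strand) are nearly the same, with 235 of 249 aligned bases identical, and each holds 1 copy of GAANNTTC, a pair of inverted heat shock units, set in capitals here and starting 106 and 105 bases before the start.
HSPA1A: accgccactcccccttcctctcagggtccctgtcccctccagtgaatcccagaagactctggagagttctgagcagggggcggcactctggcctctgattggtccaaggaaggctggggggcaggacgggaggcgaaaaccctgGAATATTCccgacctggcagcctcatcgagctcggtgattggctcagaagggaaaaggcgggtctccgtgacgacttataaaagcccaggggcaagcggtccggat
HSPA1B: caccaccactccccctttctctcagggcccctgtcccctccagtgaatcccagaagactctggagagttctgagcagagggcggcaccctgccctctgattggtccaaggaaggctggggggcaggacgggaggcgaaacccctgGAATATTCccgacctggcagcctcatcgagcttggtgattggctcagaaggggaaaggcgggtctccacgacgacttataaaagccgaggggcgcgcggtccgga
HSP90AA1 (chr14:102087045-102087294, minus strand) and HSP90AB1 (chr6:44247693-44247942, plus strand) encode the inducible and the constitutive cytosolic HSP90. Here the capitals mark runs of 2 or 3 alternating units. HSP90AA1 holds 1 run of 3 units, starting 88 bases before the start, and a pair of the form TTCNNGAA at 68. HSP90AB1 holds 2 runs of 3 units, at 165 and 112. The other HSP90AA1 start and the other 2 HSP90AB1 starts hold none of these motifs.
HSP90AA1: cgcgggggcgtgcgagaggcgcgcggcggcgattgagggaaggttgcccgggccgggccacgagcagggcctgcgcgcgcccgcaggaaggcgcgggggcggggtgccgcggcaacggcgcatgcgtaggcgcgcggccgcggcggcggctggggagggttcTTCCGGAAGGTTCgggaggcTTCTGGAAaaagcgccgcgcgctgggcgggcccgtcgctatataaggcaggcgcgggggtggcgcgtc
HSP90AB1: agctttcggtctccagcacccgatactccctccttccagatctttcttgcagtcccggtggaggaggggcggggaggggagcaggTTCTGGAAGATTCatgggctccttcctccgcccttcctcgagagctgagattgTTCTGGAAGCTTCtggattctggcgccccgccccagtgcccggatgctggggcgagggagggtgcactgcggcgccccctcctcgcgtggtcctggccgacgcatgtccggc
HSPH1 (chr13:31162389-31162638, minus strand) holds none of the motifs searched in this window, and HSPA5 (chr9:125241344-125241593, minus strand) holds the ER stress element, CCAAT and CCACG with 9 free bases between them, in capitals and starting 66 bases before the start.
HSPH1: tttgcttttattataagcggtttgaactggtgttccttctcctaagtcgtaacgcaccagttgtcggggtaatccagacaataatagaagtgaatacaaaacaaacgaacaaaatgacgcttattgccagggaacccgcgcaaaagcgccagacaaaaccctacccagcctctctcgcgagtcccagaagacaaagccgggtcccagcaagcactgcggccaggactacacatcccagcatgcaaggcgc
HSPA5: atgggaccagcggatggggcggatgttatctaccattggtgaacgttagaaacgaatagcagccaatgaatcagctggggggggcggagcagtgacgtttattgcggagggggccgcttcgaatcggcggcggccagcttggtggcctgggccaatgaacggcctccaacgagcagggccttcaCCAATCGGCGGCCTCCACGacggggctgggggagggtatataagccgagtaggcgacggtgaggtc

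Counted over genes, the run of 3 units, GAA, TTC and GAA with 2 free bases between neighbours, was present before a start of 4 of the 10 chaperone genes (HSPA8, HSP90AA1, HSP90AB1 and HSPD1) and of 0.557% of all 27305 genes. The pair GAANNTTC, which is also part of the longer run, was present in 8 of 10, all but HSPA5 and HSPH1, against 7.05% of all genes, and the pair TTCNNGAA, also part of the longer run, in the 4 genes that hold that run, against 8.12%. The ER stress element was found in HSPA5 alone of the 10, and in 0.0916% of all genes. The GAS motif TTCNNNGAA was in 0 of the 10 genes and in 8.09% of all genes. A match describes the letters in this window and is not evidence of binding.

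Of the 10 chaperone genes, 2 fell after 3 h of IFNγ, HSPH1 and HSPA1B, and 0 rose by edgeR. That is 2 of 10, both lower, beside 11.0% of all tested genes that passed as lower and 9.02% as higher. In either direction 20.0% of all tested genes passed, so in this fit the share in either direction was at the background. HSPH1 alone of the 10 passed with a change of more than 2-fold, as did 7.28% of all tested genes (4.40% lower, 2.88% higher). Its log2 fold change of -1.02 was close to that limit. It was -0.98 with upper quartile scaling and -0.60 with the GC and length trend removed, both less than 2-fold. In bulk RNA, a gene lost from some cells and less of its RNA in every cell cannot be told apart. At an unadjusted p under 0.05, 3 of the genes were lower and 3 higher, beside 18.8% and 16.6% of all tested genes. DESeq2 called 2 lower and 1 higher, beside 9.62% and 7.06%. With the replicate number added to the edgeR fit as a block, 5 of the 10 were lower and 3 higher, beside 19.5% and 17.5% of all genes. The median log2 fold change (log2FC, IFNγ over unstimulated) of the 10 was -0.13, with 4 above and 6 below 0, beside -0.0073 over all tested genes. The CPM ranges did not overlap between the groups for 3 genes that were higher (HSPA5, DNAJB1 and HSPB1) and 4 that were lower (HSPH1, HSPA1B, HSP90AA1 and HSPD1), beside 62.4% of all tested genes (31.6% higher, 30.8% lower). Among the 10, the number that passed as lower was 1 without unstimulated replicate 2, where 9.72% of all genes did. It was 4 without IFNγ replicate 2, where 10.1% did, in a fit with infinite prior degrees of freedom. As higher, 1 gene passed without unstimulated replicate 2 (7.04% of all genes) and 1 without IFNγ replicate 1 (7.58%).

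**Figure D1:**
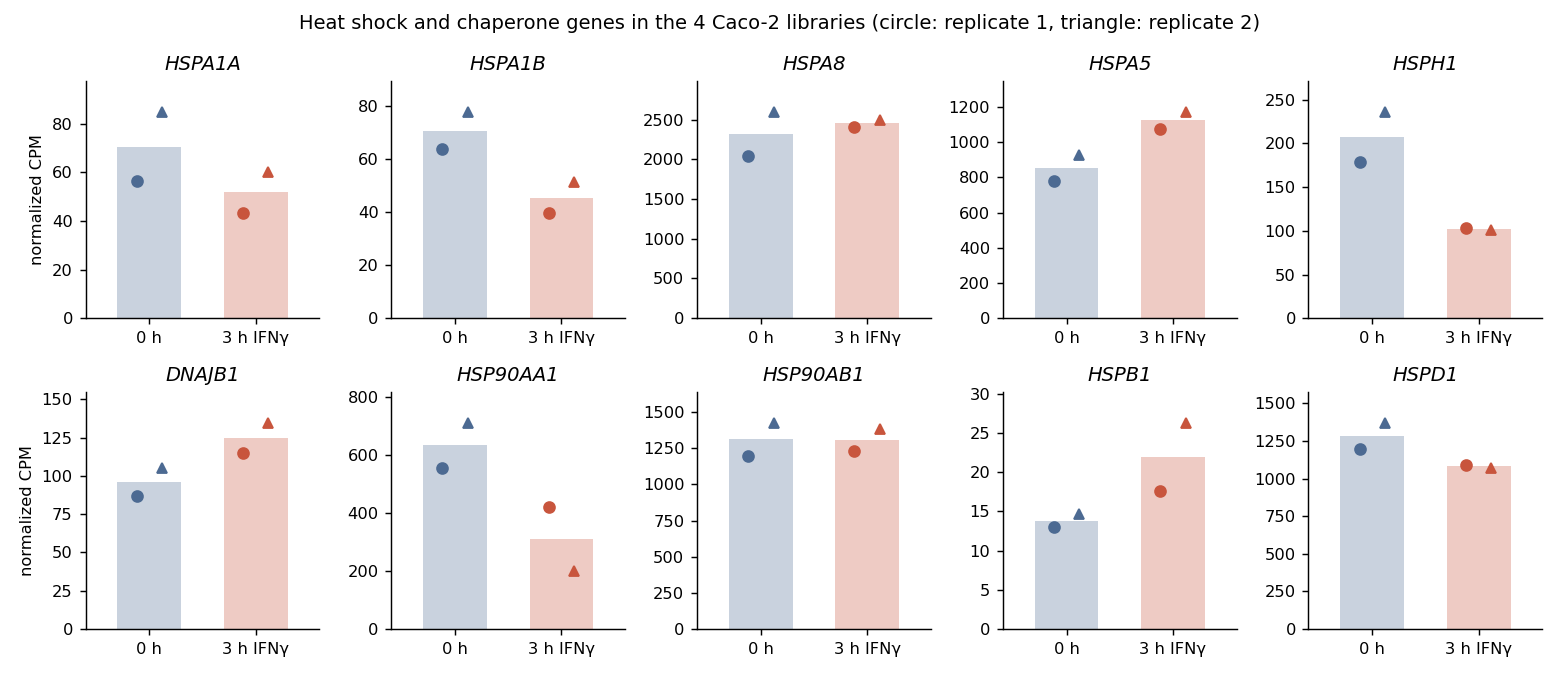
Normalized CPM (y axis, from 0, a separate scale for each gene) of the 10 chaperone genes in unstimulated (blue) and IFNγ (red) libraries, with bars at the mean of 2 libraries, circles for replicate 1 and triangles for replicate 2. The IFNγ points of HSPH1 sit near 100 CPM, below both unstimulated points, while those of HSP90AA1 are far apart, at 419.9 and 201 CPM.

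The genes differed widely in abundance. Per kilobase of the canonical transcript, the unstimulated level was highest for HSPA8, the constitutive cytosolic HSP70 (1025 CPM per kb), followed by HSPD1, the mitochondrial chaperonin HSP60 (572), and HSP90AB1 (514). HSPA5, the ER HSP70 also called BiP, had 217 and HSP90AA1 196 CPM per kb. The lower levels were those of DNAJB1 (42.9), HSPH1 (39.5), HSPA1A (29.4), HSPA1B (28.0) and HSPB1 (17.8 CPM per kb). The ranges over the 2 unstimulated libraries overlapped between HSPD1 and HSP90AB1, between HSPA5 and HSP90AA1, and between each neighbour from DNAJB1 down to HSPA1B. After IFNγ HSPA8 was again highest (1085 CPM per kb), HSP90AA1 stood at 96.1, and HSPH1 (19.5) lay in the range of HSPA1A (mean 21.5). Together the 10 genes took 0.634% and 0.751% of all counts in the unstimulated libraries and 0.650% and 0.652% in the IFNγ libraries. All 10 had a higher CPM in unstimulated replicate 2 than in unstimulated replicate 1. The share of all tested genes with this order was not counted, so it cannot be read as a trait of chaperone genes.

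HSPA1A and HSPA1B are the stress-inducible cytosolic HSP70 genes, and their coding sequences are nearly identical, so reads cannot always be assigned to one of them. HSPA1B (ENSG00000204388, chromosome 6 of GRCh37, 31795515 to 31798031, plus strand) had 63.6 and 77.6 CPM in the unstimulated libraries and 39.6 and 51.2 CPM in the IFNγ libraries. Both IFNγ values were below both unstimulated ones. The means were 70.6 ± 9.92 (SD, n = 2) and 45.4 ± 8.19 (SD, n = 2) CPM. HSPA1B fell by 0.64 on the log2 scale (SE 0.171, edgeR adjusted p = 0.0386). Its exons overlap those of a long noncoding RNA on the same strand. HSPA1A (ENSG00000204389, chromosome 6, 31783320 to 31785723, plus strand) had 56.3 and 84.8 CPM in the unstimulated and 43.4 and 60.0 CPM in the IFNγ libraries, so its groups overlapped. Its log2FC was -0.45 (95% interval -0.99 to 0.092, adjusted p = 0.211 from edgeR). The ratio of HSPA1A to HSPA1B counts was 0.885 and 1.09 in the unstimulated and 1.10 and 1.17 in the IFNγ libraries.

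Summed and fitted as 1 gene, the pair had 1231 and 1159 counts in the unstimulated and 853 and 815 in the IFNγ libraries. The sum had a log2FC of -0.54 (95% interval -0.99 to -0.09), which did not pass the test (adjusted p = 0.0895 from edgeR). HSPA1B also did not pass without unstimulated replicate 2 (-0.48, adjusted p = 0.121 from edgeR) or without IFNγ replicate 1 (-0.47, adjusted p = 0.104). As a share of HSPA8, their constitutive counterpart, the summed counts were 5.86% and 6.25% in the unstimulated and 3.44% and 4.45% in the IFNγ libraries, with no overlap. With 2 libraries against 2 an exact permutation test of such a ratio cannot go below p = 0.33, so none was run.

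HSPA8 (ENSG00000109971, chromosome 11 of GRCh37, 122928197 to 122933938, minus strand) serves folding, clathrin uncoating and transport in unstressed cells. It had 2044 and 2596 CPM in the unstimulated and 2413 and 2500.1 CPM in the IFNγ libraries. The IFNγ values lay inside the unstimulated range. Its log2FC was 0.083 (95% interval -0.23 to 0.40, adjusted p = 0.703 from edgeR), and its sign turned without unstimulated replicate 1 (-0.082). Its exons overlap 2 snoRNA genes and a long noncoding RNA on the other strand.

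HSPH1 (ENSG00000120694, chromosome 13 of GRCh37, 31709110 to 31736525, minus strand) encodes HSP110 (HSP105), which acts as a nucleotide exchange factor for HSP70 in protein disaggregation. It had 179 and 236 CPM in the unstimulated libraries and 104 and 100.4 CPM in the IFNγ libraries. The means were 207 ± 40.7 (SD, n = 2) and 102 ± 2.38 (SD, n = 2) CPM. HSPH1 fell by 1.02 on the log2 scale (SE 0.152, 95% interval -1.38 to -0.66, adjusted p = 0.00516 from edgeR), with a log2FC of -0.78 between the replicates 1 and of -1.23 between the replicates 2. It passed the test with each of the 4 libraries left out in turn. HSPH1 has the lowest GC content of the 10 (39.6%), in the GC quintile whose median log2FC was -0.42. With the trend of GC content and length removed its log2FC was -0.60 (adjusted p = 0.0253 from edgeR).

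DNAJB1 (ENSG00000132002, chromosome 19 of GRCh37, 14625581 to 14671203, minus strand) encodes HSP40, the J-domain partner of inducible HSP70, and is itself an HSF1 target. It had 86.9 and 105 CPM in the unstimulated and 115 and 135 CPM in the IFNγ libraries. The IFNγ values were above both unstimulated ones. Its log2FC was 0.38 (95% interval 0.040 to 0.72), which did not pass the test (adjusted p = 0.107 from edgeR). The ratio of DNAJB1 to HSPH1 counts, a J-domain protein against an exchange factor of the same cycle, was 0.486 and 0.446 in the unstimulated and 1.11 and 1.34 in the IFNγ libraries. This ratio was not among those planned, and it restates the changes of both genes. Exons of DNAJB1 overlap those of TECR and a microRNA gene on the other strand.

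**Figure D2:**
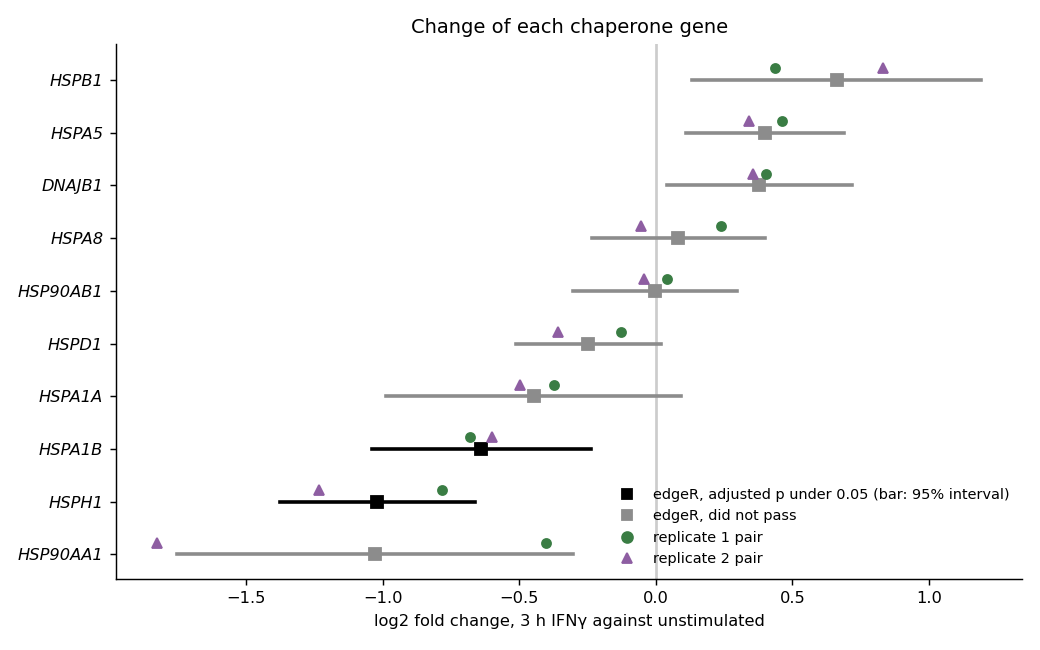
Log2FC (x axis) of the 10 chaperone genes, ordered by size, with squares and 95% interval bars from edgeR (black where adjusted p is under 0.05), green circles for the difference of the replicates 1 and purple triangles for that of the replicates 2. HSPH1 and HSPA1B are black, and HSP90AA1 has the widest bar, with its replicate differences at -0.40 and -1.83.

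The cytosolic HSP90 genes had different values in the IFNγ libraries. HSP90AA1 (ENSG00000080824, chromosome 14 of GRCh37, 102547079 to 102606036, minus strand), the inducible form, had 555 and 711 CPM in the unstimulated libraries. In the IFNγ libraries it had 419.9 CPM in replicate 1 and 201 CPM in replicate 2. Both IFNγ values were below the unstimulated ones, but they differed from each other by 1.07 on the log2 scale. The log2FC of -1.03 (SE 0.310, 95% interval -1.75 to -0.30) had an adjusted p of 0.0560 from edgeR and did not pass. The value was -0.61 without IFNγ replicate 2 (adjusted p = 0.00426 from edgeR, in the fit with infinite prior degrees of freedom, which sets aside the spread of single genes) and -1.66 without IFNγ replicate 1 (adjusted p = 0.000162).

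Such a gap between replicates was rare at this level of expression. Of 4607 tested genes with a mean of at least 50 CPM, 41 differed as much between the IFNγ replicates, HSP90AA1 included. Of the other 40 genes, 37 were higher in replicate 1 and 36 had a negative log2FC. A gene low in IFNγ replicate 2 also has a lower IFNγ mean, so this sign is partly set by the choice of genes. Of the 41, 18 were also apart in the same direction in the unstimulated pair, by more than 0.5 on the log2 scale. HSP90AA1 was not, with a difference of replicate 1 from replicate 2 of -0.36 in that pair. The median difference between the IFNγ replicates over the 4607 genes was 0.13 on the log2 scale. The part of this library difference in the HSP90AA1 result was not tested. HSP90AA1 exons overlap those of WDR20 on the other strand.

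HSP90AB1 (ENSG00000096384, chromosome 6 of GRCh37, 44213903 to 44221625, plus strand), the constitutive form, had 1197 and 1428 CPM in the unstimulated and 1232 and 1386 CPM in the IFNγ libraries. The IFNγ values lay inside the unstimulated range. Its log2FC was -0.0035 (95% interval -0.30 to 0.30, adjusted p = 0.988 from edgeR), and its sign turned under upper quartile scaling (0.041). The ratio of HSP90AA1 to HSP90AB1 counts was 0.464 and 0.498 in the unstimulated and 0.341 and 0.145 in the IFNγ libraries, so both IFNγ ratios were lower.

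Several chaperone genes have processed pseudogenes that resemble their transcripts and can take their reads. The 5 HSP90AA pseudogene rows together held 411, 344, 320 and 109 counts in the order unstimulated replicates 1 and 2, IFNγ replicates 1 and 2. These were 7.21%, 6.78%, 7.41% and 7.41% of the HSP90AA1 counts, a nearly fixed share although the HSP90AA1 counts ran from 1470 to 5702. The share was at most 5.90% for the 5 HSP90AB rows, 5.36% to 5.88% for the 14 HSPD1 rows and 0.955% to 1.01% for the 14 HSPA8 rows. Adding these counts to their parent genes, which was tried only after these values were known, changed no call, and the sign only of HSP90AB1, to 0.00056.

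**Figure D3:**
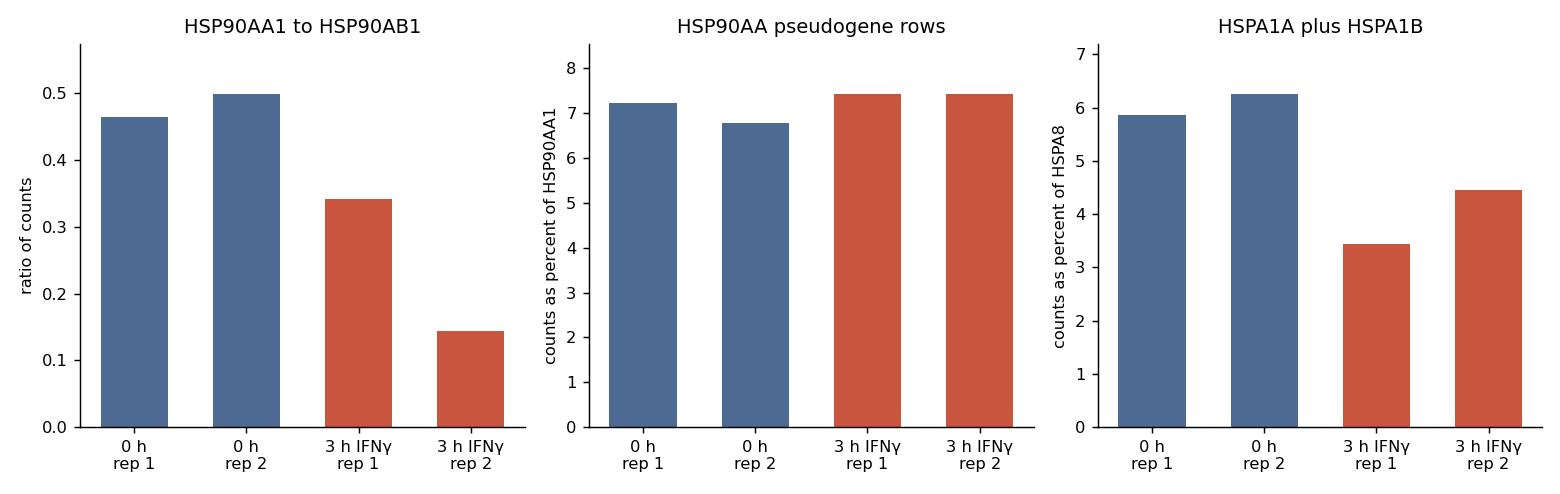
Count ratios in each of the 4 libraries (x axis, unstimulated in blue, IFNγ in red) with the y axes from 0. The left panel gives HSP90AA1 over HSP90AB1 (0.145 to 0.498), the middle panel HSP90AA pseudogene counts as a percent of HSP90AA1 (6.78% to 7.41%), and the right panel HSPA1A plus HSPA1B as a percent of HSPA8 (3.44% to 6.25%).

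The small heat shock protein HSPB1 (HSP27; ENSG00000106211, chromosome 7 of GRCh37, 75931990 to 75933612, plus strand) holds unfolded proteins without using ATP. It was the least abundant of the 10, with 133 and 105 counts in the unstimulated and 181 and 193 counts in the IFNγ libraries, or 13.0 and 14.7 against 17.6 and 26.3 CPM. Both IFNγ values were above the unstimulated ones. The log2FC was 0.66 (95% interval 0.13 to 1.19), with an adjusted p of 0.0794 from edgeR, and it did not pass. It ran from 0.33 without IFNγ replicate 2 to 0.92 without IFNγ replicate 1.

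HSPD1 (ENSG00000144381, chromosome 2 of GRCh37, 198351308 to 198381461, minus strand) forms the folding chamber of the mitochondrial matrix with its lid HSPE1, whose gene lies head to head with it and overlaps its exons on the other strand. HSPD1 had 1194 and 1372 CPM in the unstimulated and 1092 and 1069.6 CPM in the IFNγ libraries. The IFNγ values were below both unstimulated ones. The log2FC of -0.25 (95% interval -0.51 to 0.018) did not pass (adjusted p = 0.166 from edgeR), and it was -0.019 with the GC and length trend removed.

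HSPA5 (ENSG00000044574, chromosome 9 of GRCh37, 127997132 to 128003661, minus strand), the ER HSP70 that also holds the sensors of the unfolded protein response inactive, had 779 and 924 CPM in the unstimulated and 1074 and 1171 CPM in the IFNγ libraries. All IFNγ values were above the unstimulated ones, with a log2FC of 0.46 between the replicates 1 and 0.34 between the replicates 2. The fitted value of 0.40 (SE 0.124, 95% interval 0.11 to 0.69) had an adjusted p of 0.0608 from edgeR and did not pass, while DESeq2 gave 0.39 with an adjusted p of 0.0316.

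The changes of the chaperone genes can be set beside a trend over all genes. Across the 14518 tested genes with a transcript sequence, log2FC and transcript GC content were related, with a median log2FC of -0.42 in the lowest quintile of GC and 0.21 in the highest (Spearman rho = 0.436 across genes, which are not independent). HSPA1A (59.8% GC) and HSPA1B (58.8%) lay in the highest quintile and had negative log2FC values, opposite in sign to the median of that quintile. HSPH1 (39.6%), HSP90AA1 (41.6%) and HSPD1 (41.7%) lay in the lowest 2 quintiles, whose medians were also negative. With the trend removed, HSPA1B was at -0.88 (adjusted p = 0.0125 from edgeR), HSPA1A at -0.70 (0.0768) and HSP90AA1 at -0.80 (0.0714). HSPB1, with the highest GC content of the 10 (65.3%), was at 0.41 and DNAJB1 at 0.20, both below their values without the removal.

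**Figure D4:**
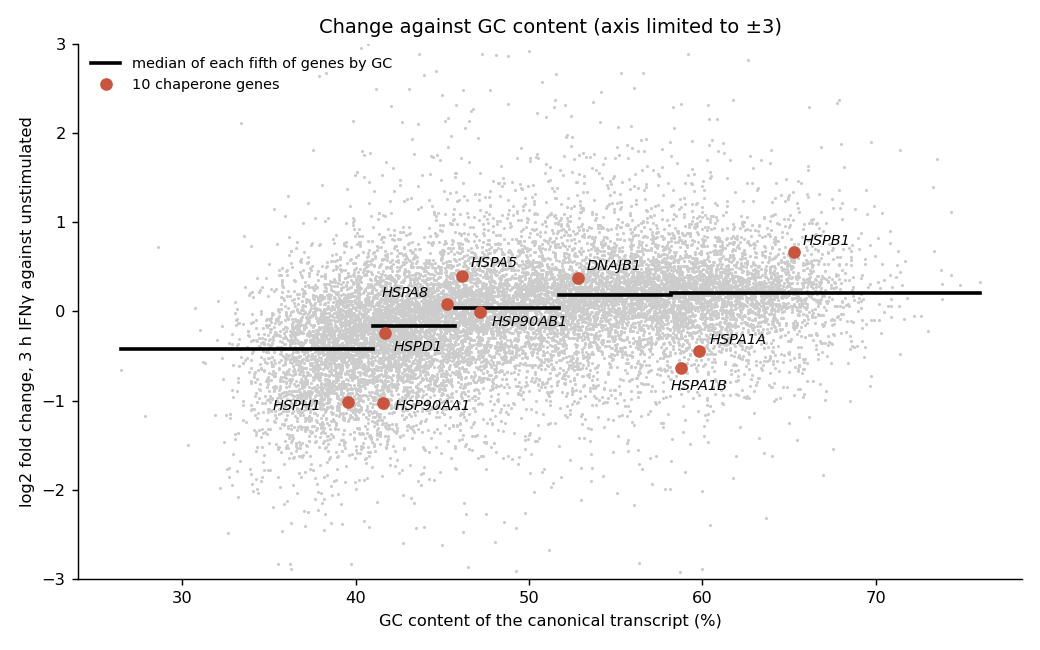
Log2FC (y axis, cropped to the plotted range) against the GC content of the canonical transcript in percent (x axis) for the tested genes (grey), with black lines at the median of each quintile of genes by GC content and red points for the 10 chaperone genes. The medians go from -0.42 to 0.21, and HSPA1A and HSPA1B lie below the line of the highest quintile.

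Chaperones and co-chaperones outside the 10 genes were grouped in 10 lists by role, which held 134 different genes, of which 130 had a row and 116 were tested. Among these 5 rose and 11 fell (adjusted p under 0.05, edgeR), against 9.02% and 11.0% of all tested genes. The counts of the single lists below stand beside these same shares, and no list was tested as a set. Their median log2FC was 0.039, and it was -0.0041 with scaling by library size only and -0.014 with the GC and length trend removed. The number that rose was 2 without unstimulated replicate 1 (4.75% of all genes) and 3 without IFNγ replicate 2 (6.49%), and 7 fell without unstimulated replicate 2 (9.72%). With the GC and length trend removed, the medians of the J-domain list (0.014), the exchange factors (-0.023), the HSP90 list (-0.068), TRiC and prefoldin (0.036) and the HSF1-linked list (-0.034) had the sign opposite to that given next for each. Leaving out 1 library also moved the list medians. Without unstimulated replicate 1 the sign turned for the HSP90 list (-0.099), the mitochondrial list (-0.080), the ER list (-0.056) and the HSF1-linked list (-0.13), as it did for the same lists without IFNγ replicate 2 (-0.016, -0.13, -0.018 and -0.062). TRiC and prefoldin turned to 0.046 without unstimulated replicate 2 and to 0.0084 without IFNγ replicate 1. The exchange factors ran from 0.0011 without IFNγ replicate 2 to 0.28 without unstimulated replicate 2, and without the latter library the HSP70 family stood at -0.0075 and the J-domain list at -0.092. The medians below are therefore values with no direction attached.

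In the HSP70 and HSP110 family 1 of 9 tested genes fell and 0 rose, with a median of -0.18. This was HSPA4L, a relative of HSPH1, with means of 37.1 CPM in the unstimulated and 15.1 CPM in the IFNγ libraries (log2FC -1.29, SE 0.153, edgeR adjusted p = 0.00269). HSPA4, the other HSP110 relative of the cytosol, had a log2FC of 0.072 (edgeR adjusted p = 0.710). HSPA6, a strictly inducible HSP70 gene, had at most 4 counts in any library and was not tested. HSPA4 and HSPA6 were named here after their values were seen.

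Of 36 tested J-domain genes other than DNAJB1, 4 rose and 4 fell, with a median of -0.16. DNAJB4, a close relative of DNAJB1 in the cytosol, went from 15.4 and 16.1 CPM to 5.25 and 3.96 CPM (log2FC -1.75, SE 0.223, adjusted p = 0.00335 from edgeR). DNAJC13, a J-domain protein of endosomes, had a log2FC of -1.21, and DNAJB14, of the ER membrane, -1.16. The genes that rose changed less than 2-fold, and were DNAJC30 (0.93), DNAJC22 (0.57), DNAJB12 (0.49) and DNAJC14 (0.48), named after their values were seen.

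Among 10 exchange and handover factors of HSP70, 1 fell and 0 rose, with a median of 0.14. The gene that fell was BAG4 (-0.58), named after its values were seen. The ends of the list were BAG5 at 0.42 and BAG2 at -0.64, and neither passed. Among 17 HSP90 relatives and co-chaperones 3 fell and 0 rose, with a median of 0.051. CHORDC1, an HSP90 co-chaperone, went from 133 and 139.7 CPM to 59.2 and 32.3 CPM (log2FC -1.56, SE 0.250, adjusted p = 0.00644 from edgeR). CDC37L1, a relative of the kinase co-chaperone CDC37, had a log2FC of -1.10 (adjusted p = 0.0428), and passed in 1 of the 4 fits that left out a library. The third gene, SUGT1 (-0.50), was named after its values were seen.

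The chaperones of the organelles and the chaperonins held few genes that passed. Of 11 mitochondrial genes 1 fell and 0 rose, CLPX, the unfoldase of the CLPXP protease (-0.58, adjusted p = 0.0194 from edgeR), and the highest of the list was CLPP (0.31, not passed). Of 18 ER folding factors 1 fell and 0 rose, DNAJC10, a disulfide reductase with a J-domain (-0.80, adjusted p = 0.0124), and the highest was SDF2L1 (0.48, not passed). With the GC and length trend removed, DNAJC10 was at -0.014 and did not pass. For comparison with HSPA5, the median of the ER list was 0.075. Of 14 subunits of the chaperonin TRiC and of prefoldin 0 passed by edgeR, with CCT8 lowest at -0.46 (adjusted p = 0.0546) and PFDN1 highest at 0.38, and the median was -0.070. Of the small heat shock proteins 2 could be tested, CRYAB (0.84, 5 to 13 counts per library) and HSPB8 (0.35), and neither passed.

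The heat shock factors did not pass the test in either direction. HSF1, the factor that drives the heat shock response, had a log2FC of 0.23 (adjusted p = 0.224 from edgeR), HSF2 of -0.50 (0.112), HSF4 of -0.97 (0.153) and the HSF1-binding protein gene HSBP1 of 0.058 (0.807). Of 21 tested genes of a list linked to HSF1 and heat, other than the 10, 1 rose and 4 fell. Over all tested genes, 9.02% rose and 11.0% fell. The median of the list was 0.030, and it was -0.011 with scaling by library size only. The 4 that fell were DNAJB4, CHORDC1 and HSPA4L, given above, and DEDD2 (-0.56), named after its values were seen.

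Several of the smaller changes did not pass in most fits that left out a library, although their sign held. With each library left out in turn, log2FC ran from 0.43 to 0.52 for DNAJC14 and from 0.41 to 0.54 for DNAJB12. It ran from -0.78 to -0.43 for BAG4, -0.61 to -0.40 for SUGT1 and -0.67 to -0.48 for DEDD2. By DESeq2, DNAJC14 (adjusted p = 0.127), BAG4 (0.0693), SUGT1 (0.0560) and DEDD2 (0.0952) did not pass.

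Of the 11 wider genes that fell, 10 lay in the lowest 2 quintiles of GC content and 9 fell more between the replicates 2 than between the replicates 1. The median log2FC of all genes with a transcript sequence was also negative in these quintiles (-0.42 and -0.16). The shares among all genes that fell were not counted, so neither number can be read as a trait of chaperone genes. With the GC and length trend removed, 5 of the 11 wider genes that fell passed the test (DNAJB4, CHORDC1, HSPA4L, DNAJC13 and DEDD2). The rest did not pass, with CDC37L1 at -0.62, DNAJB14 at -0.34, CLPX at -0.28, BAG4 at -0.14, DNAJC10 at -0.014 and SUGT1 turned to 0.23. Of the 5 that rose, 3 passed (DNAJC30 and DNAJC22 among them).

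**Figure D5:**
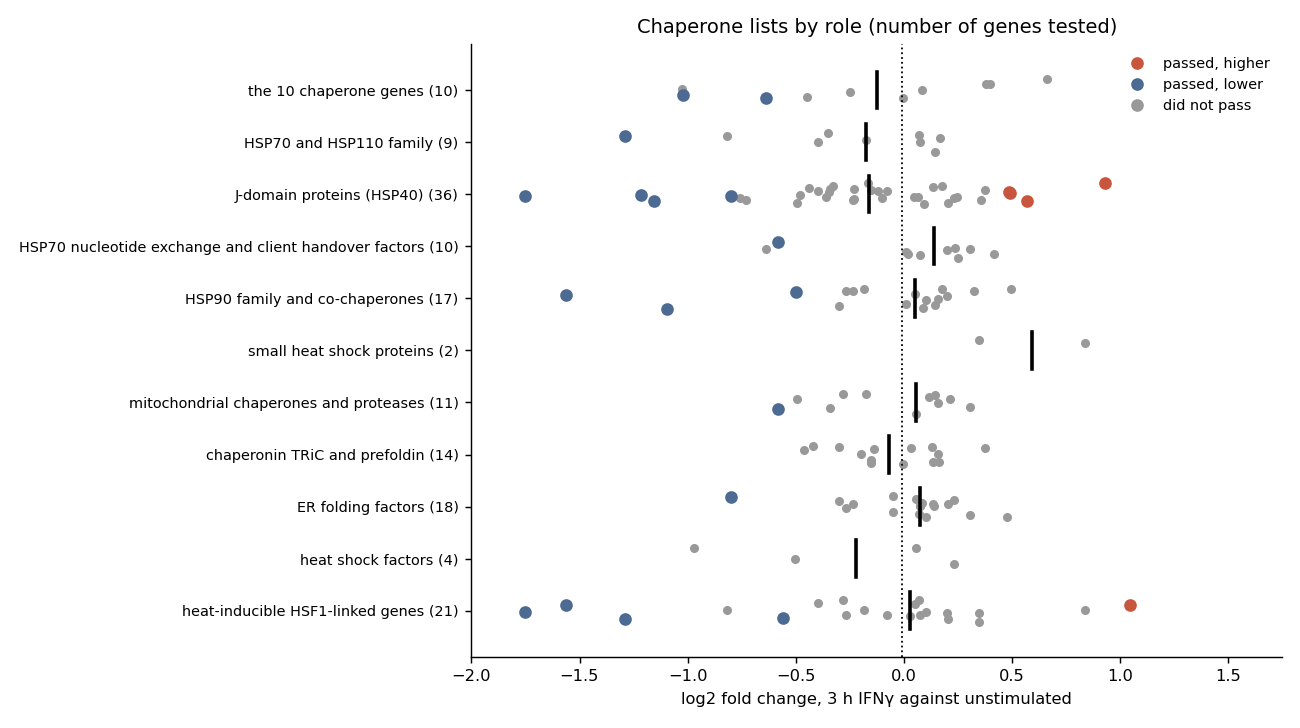
Log2FC (x axis) of each tested gene in the chaperone lists (y axis, number tested in parentheses, genes in several lists shown in each), red and blue where adjusted p from edgeR is under 0.05, with black bars at list medians and a dotted line at the median of all tested genes. The list medians run from -0.22 for heat shock factors to 0.59 for the 2 small heat shock proteins, and the lowest points are DNAJB4 (-1.75) and CHORDC1 (-1.56).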

How the data were processed

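RNA-seq counts of 4 Caco-2 libraries were used, 2 unstimulated and 2 after 3 h of IFNγ, grouped by the submitters' labels. The authors deposited raw read counts per Ensembl gene, not normalized and not pooled. The submitters' processing notes name HISAT 0.5.1 and HTSeq 0.6.1p1. The genome build, annotation and strand setting are not given in the sources used here, so overlapping and near-identical genes are uncertain. Of the rows, 96.5% were paired with a symbol. Gene positions and transcript GC content came from GENCODE 44 on GRCh37.

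Genes were tested with edgeR 4.0.16 (quasi-likelihood test, default filter on low counts, TMM scaling, no block) in R 4.3.3. P-values were Benjamini-Hochberg adjusted over the 14820 tested genes, and genes passed at an adjusted p-value under 0.05. Standard errors were the log2 fold change over the square root of F, and intervals cover 95%. Log2 fold changes of pairs used a prior count of 2. The fit was tested on simulated data. Precision is limited by the 2 libraries per group.

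The 10 genes, the lists and the alternatives were chosen with earlier results of these data known. Named genes were the 10, the list genes that passed with an absolute log2 fold change above 1, otherwise the highest and lowest of a list, and the heat shock factors. Other list genes were named after their values were seen and are marked so. Some genes that this rule or the lists name are not reported here. Alternatives were other scalings, DESeq2 1.42.0, other filters, the replicate block, a loess fit that removed the trend of GC content and length, summed paralogs, a threshold of 0.01, and each library left out.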

Additional observations from a re-analysis of the deposited data

How the results depend on the processing

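HSPH1 passed the test as lower under every alternative run. HSPA1B did not at an adjusted p-value under 0.01, when summed with HSPA1A (-0.54), without unstimulated replicate 2 or without IFNγ replicate 1. With the replicate block (deviations of same-numbered libraries correlated at r = 0.415, but the labels give the numbers no meaning), HSPA1A (-0.44), HSP90AA1 (-1.10), HSPD1 (-0.24), HSPA5 (0.40), DNAJB1 (0.38) and HSPB1 (0.64) passed as well, so that 3 of the 10 were higher and 5 lower, and 14 wider chaperone genes were higher and 26 lower, beside 17.5% and 19.5% of all genes in that fit. Without a filter on low counts, which made the prior degrees of freedom infinite, so that p-values are not comparable, HSPA5 (0.42), DNAJB1 (0.40), HSPB1 (0.68) and HSP90AA1 (-1.01) passed, which made 3 of the 10 higher (6.03% of all genes), and 17 wider genes were lower (7.74%). HSPA5 passed with upper quartile scaling (0.44) and DESeq2 (0.39), which made 1 of the 10 higher (11.0% and 7.06% of all genes). HSP90AB1 turned sign with upper quartile scaling (0.041), without a filter (0.015) and with pseudogene rows added (0.00056). At an adjusted p-value under 0.01, 1 of the 10 was lower, and 1 wider gene was higher and 4 lower. The share of all tested genes at that threshold was not counted, so these numbers have no background beside them. The wider genes that were lower numbered 17 by library size only (1771 of all 14820 tested genes) and 7 with the GC and length trend removed (954 of 14518). The causes of these shifts were not tested.

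With each library left out in turn, log2 fold changes ran from -0.72 to -0.11 for HSPA1A, -0.85 to -0.47 for HSPA1B, -0.082 to 0.28 for HSPA8, 0.28 to 0.54 for HSPA5, -1.21 to -0.79 for HSPH1, 0.24 to 0.54 for DNAJB1, -1.66 to -0.61 for HSP90AA1, -0.13 to 0.14 for HSP90AB1, 0.33 to 0.92 for HSPB1 and -0.35 to -0.13 for HSPD1. The lone library of a group is then assumed to vary like the other group. The counts of genes that passed rest on this assumption. The shares of all tested genes that passed also moved between these fits. The counts are therefore given as ranges only and cannot be read as a trait of chaperone genes. From 0 to 1 of the 10 genes were higher and 1 to 4 lower, from 2 to 5 wider genes were higher and 7 to 13 lower, and the wider median ran from -0.082 to 0.14.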
